A study of Mus musculus with 4 samples.

Results

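The accessibility of 7 genes, Cebpa, Cebpb, Cebpd, Cebpe, Gfi1, Mpo and Elane, was described in single-cell ATAC-seq data of mouse long-term hematopoietic stem cells (LT-HSCs). This assay counts where the Tn5 transposase cuts open chromatin in each nucleus. The genes are 7 of 21924 protein-coding genes, and they were chosen by name for their part in the C/EBP family and in the making of granulocytes and monocytes. A gene was given the peaks that touch its body or the 5000 bp upstream of its start, and Cebpa also those within 40000 bp downstream, a stretch that holds its known distal enhancer. These windows took 19 of the 93513 peaks of the table.

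The table carries cells of CLCA3A1high and CLCA3A1low LT-HSCs from old C57BL/6JRj mice aged 22 to 28 months, with no treatment or engineered allele named in the labels. CLCA3A1 is a surface protein, and an antibody to it was used for the sort. Each of the 2 samples was made from 10000 sorted cells, with 4 mice giving 2500 cells each, so mice cannot be told apart within it. Samples of LT-HSCs not split by CLCA3A1, young (age 3 to 4 months) and old (22 to 28 months), were not used here. Per the study's methods, LT-HSCs are lineage-negative cells positive for Sca-1 and c-Kit and negative for CD34 and CD135.

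Cell barcodes ended in 1 or 2 and are called barcode set 1 and barcode set 2. The labels do not tell which set is CLCA3A1high and which CLCA3A1low, so the values of the sets stand side by side and no direction between the groups was drawn. Each set was read as 1 library, cells are not replicates, and no p-value is given. Set 1 held 818 cells with 13050952 counts and set 2 held 636 cells with 9820094 counts, with medians of 13358.5 and 12755 counts per cell, and 0 barcode sequences occurred in both sets. As a check of the sorted cell type, 8 of 8 HSC marker loci carried at least 20 counts. So did 4 of 4 monocyte and macrophage, 4 of 4 erythroid, 3 of 4 B cell, 3 of 5 neutrophil and 2 of 4 T cell marker loci, so accessibility at these loci does not by itself separate the cell types. The T cell loci Cd3e and Cd3g were at 0, as was the neutrophil locus Camp, which had no peak in its window.

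C/EBP proteins are basic leucine zipper transcription factors that bind DNA in pairs. C/EBPα, made from Cebpa, is required for the step from multipotent progenitors to granulocyte and monocyte progenitors, and stem cells transcribe its gene at a low level. Gfi1 encodes a zinc finger repressor that acts in neutrophil development and also restrains the cycling of stem cells. Mpo and Elane encode myeloperoxidase and neutrophil elastase, enzymes of the primary granules that are made in committed progenitors.

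The sequences below are those the later values turn on. The first lies within the strongest distal peak of the Cebpa window, at chr7:35156581-35156880 of GRCm38, plus strand, beginning 37288 bp downstream of the Cebpa start. These 300 bases were chosen after the sequence was seen because they hold all 4 copies of the RUNX core word TGTGGT found in that peak, all read on the minus strand. RUNX proteins are regulators of blood stem cells and are known to bind the distal Cebpa enhancer. The copies appear in capitals as ACCACA.
Cebpa distal peak: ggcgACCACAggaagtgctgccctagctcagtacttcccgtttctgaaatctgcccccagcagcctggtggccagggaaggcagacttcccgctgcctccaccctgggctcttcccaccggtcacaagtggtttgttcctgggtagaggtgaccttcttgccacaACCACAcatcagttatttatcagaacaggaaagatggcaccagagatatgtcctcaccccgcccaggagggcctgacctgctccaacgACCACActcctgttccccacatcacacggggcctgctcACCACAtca
The following are the 250 bases upstream of RefSeq starts (GRCm38.p6). Cebpa lies at chr7:35119043-35119292 on the plus strand and Gfi1 at chr5:107725806-107726055 on the minus strand, and their starts lie inside a peak. Mpo lies at chr11:87793534-87793783 and Elane at chr10:79886062-79886311, both on the plus strand, and neither start was covered by a peak. Capitals mark the C/EBP word TTGCNNAA in Gfi1 and the PU.1 word GAGGAA in Mpo and Elane.
Cebpa promoter: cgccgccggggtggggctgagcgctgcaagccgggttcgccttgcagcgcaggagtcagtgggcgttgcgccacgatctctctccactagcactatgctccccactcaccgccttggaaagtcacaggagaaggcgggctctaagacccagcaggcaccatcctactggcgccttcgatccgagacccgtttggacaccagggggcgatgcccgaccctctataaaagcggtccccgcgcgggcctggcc
Gfi1 promoter: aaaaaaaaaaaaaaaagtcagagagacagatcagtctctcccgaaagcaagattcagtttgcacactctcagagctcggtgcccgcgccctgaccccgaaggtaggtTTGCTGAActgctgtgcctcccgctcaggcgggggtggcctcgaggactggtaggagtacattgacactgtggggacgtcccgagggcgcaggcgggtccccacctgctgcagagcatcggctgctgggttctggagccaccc
Mpo promoter: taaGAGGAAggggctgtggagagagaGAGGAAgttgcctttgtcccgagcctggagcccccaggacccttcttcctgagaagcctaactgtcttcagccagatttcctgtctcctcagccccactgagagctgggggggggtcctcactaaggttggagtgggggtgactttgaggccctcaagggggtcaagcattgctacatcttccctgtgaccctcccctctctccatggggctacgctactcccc
Elane promoter: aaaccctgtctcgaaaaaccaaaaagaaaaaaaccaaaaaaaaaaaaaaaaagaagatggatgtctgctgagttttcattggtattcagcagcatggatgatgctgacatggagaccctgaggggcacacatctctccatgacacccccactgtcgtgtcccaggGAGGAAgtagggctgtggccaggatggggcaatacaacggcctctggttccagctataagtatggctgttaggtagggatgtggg
Of the 7 genes, 5 had an entry in this RefSeq table and Cebpd and Cebpe did not.

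On both strands, 6 words were searched. Those of C/EBP, RUNX and PU.1 are given above. The word taken for further ETS family members was CCGGAAGT. The GATA factor word was AGATAA. The word for E-box binding proteins was CAGCTG. The PU.1 word also occurs within longer sites of the ETS family. None of the 6 words was found in the 250 bases before the Cebpa start or the Cebpb start. Gfi1, which has 2 RefSeq starts, held 1 TTGCNNAA before its upstream start, a word present in 9.56% of the 32851 promoters of the table. Mpo held 2 copies of GAGGAA and Elane held 1, a word present in 23.3% of promoters. The promoters also differed in base composition. The observed over expected ratio of CpG dinucleotides was 0.985 for Cebpb and 0.801 for Cebpa, against 0.0913 for Mpo and 0.216 for Elane and a median of 0.374 over all promoters. A word match is a description of the letters and not of a bound factor.

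Across both sets, the member peaks covered a wide range of signal per length. The highest was the distal Cebpa peak with 15.1 CPM (counts scaled to a total of 1e6) per kb (95% exact Poisson interval 13.7 to 16.5). Next came the Cebpa promoter peak with 13.3 CPM per kb (12.5 to 14.2) and the Cebpd peak with 12.6 (11.96 to 13.3), and the intervals of each neighbouring pair overlapped. The lowest values were found at Mpo, with 2.80 CPM per kb (2.05 to 3.73) for the peak 1473 bp into the gene and 2.21 (0.956 to 4.36) for that at 9308 bp. The median of the 19 peaks was 6.88 CPM per kb and that of all 93513 peaks was 6.89. Member peaks were often broad, with 6 of 19 (31.6%) at least 3000 bp wide against 2.36% of all peaks. Every interval in the text reflects counting error alone, and since 88.7% of the nonzero entries were even (a fragment usually leaves 2 cut sites) they are narrower than the true error.

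**Figure D1:**
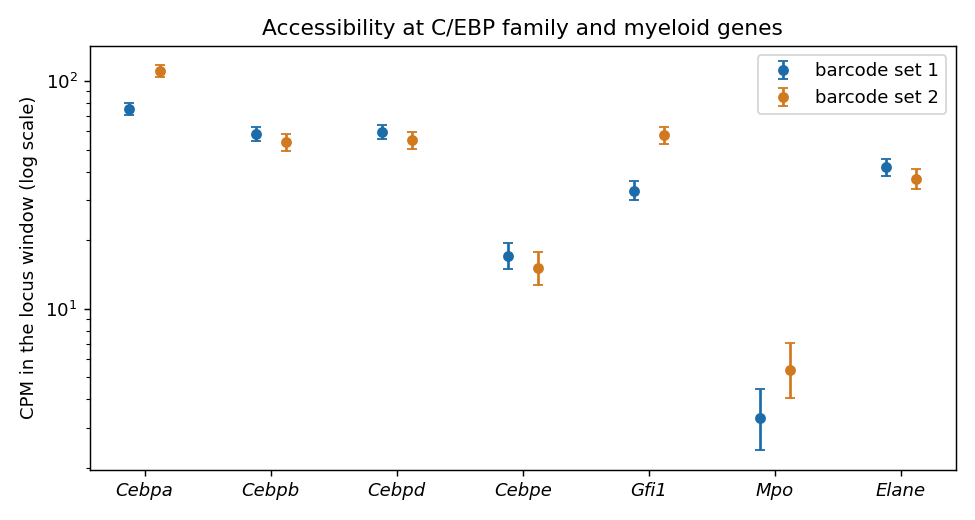
CPM in the window of each gene (log scale) for barcode set 1 (blue) and barcode set 2 (orange), with exact 95% Poisson intervals that cover counting error only. Cebpa and Gfi1 stand apart between the sets, at 75.3 against 110.5 and 33.0 against 57.7 CPM, and Mpo has the lowest level in both.

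Summed over its window, Cebpa had 983 counts in set 1 and 1085 in the smaller set 2. This corresponds to 75.3 CPM (70.7 to 80.2) and 110.5 CPM (104.0 to 117.3). The log2 ratio of CPM, set 1 over set 2, was -0.55 (-0.68 to -0.43), at percentile 4.88 of all loci. Only the Cebpa window was extended downstream, so this percentile compares unlike windows. Without the downstream part the ratio was -0.33 (-0.52 to -0.15). The ratio of -0.55 fell just short of 1.5-fold, the size at which a difference was called (0.585 on the log2 scale, with at least 20 counts over both sets). After cells had been thinned to an equal depth of 4899 counts each, 22.0% of 749 cells in set 1 (exact binomial interval 19.1 to 25.2%) and 34.8% of 560 cells in set 2 (30.9 to 38.9%) had a count in the Cebpa window. Thinning left out 69 cells of set 1 and 76 of set 2. Without thinning the shares were 38.9% and 47.5%. Hence more cells of set 2 had a count at Cebpa at equal depth, and the intervals of the sets did not overlap.

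The Cebpa window held 8 peaks, and its difference between the sets was uneven along it. The promoter peak (chr7:35117723-35120972, GRCm38) covers the start, 1077 bp of coding sequence and an antisense transcript, Gm45091. It had 38.9 CPM in set 1 and 49.1 CPM in set 2, a log2 ratio of -0.33 (-0.52 to -0.15). With each peak counted once per cell, the promoter ratio was -0.22 and its interval included 0 (-0.52 to 0.09). The promoter shares of cells at equal depth, 11.75% (9.53 to 14.27%) in set 1 and 15.54% (12.63 to 18.81%) in set 2, had overlapping intervals. The distal peak (chr7:35155807-35157147), centred 37184 bp downstream of the start and outside any annotated gene, had 188 counts in set 1 and 274 in set 2. These are 14.4 CPM (12.4 to 16.6) and 27.9 CPM (24.7 to 31.4), a log2 ratio of -0.95 (-1.23 to -0.68). At equal depth, 5.61% (4.07 to 7.504%) of set 1 cells and 10.9% (8.44 to 13.8%) of set 2 cells had a count there. The ratio was -0.87 (-1.31 to -0.43) with each peak counted once per cell.

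**Figure D2:**
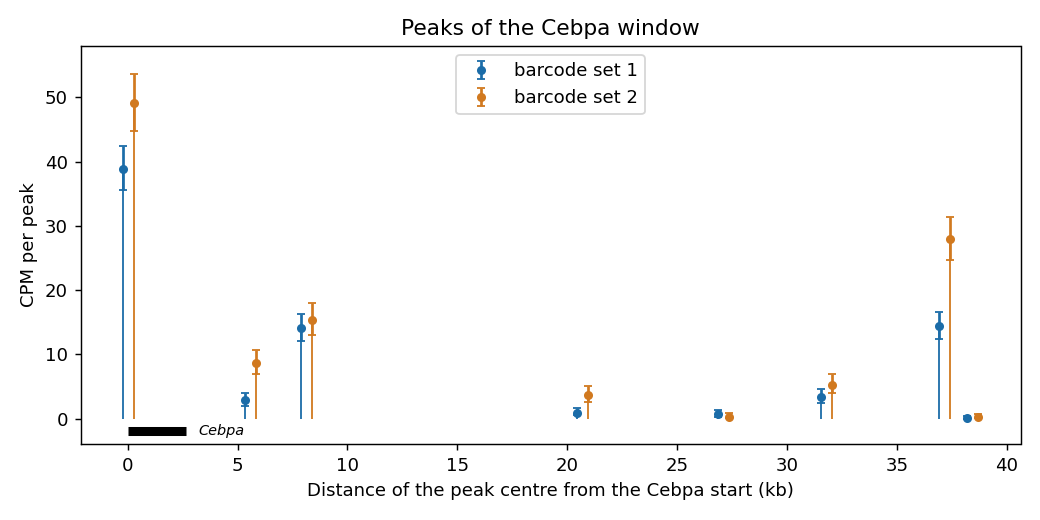
CPM of each of the 8 peaks of the Cebpa window in barcode set 1 (blue) and set 2 (orange), plotted at the distance of the peak centre from the Cebpa start in kb, with exact 95% Poisson intervals. Points of the 2 sets are shifted sideways, and the black bar is the Cebpa gene. The gap at the distal peak, 14.4 against 27.9 CPM, is wider than that at the promoter, 38.9 against 49.1 CPM.

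The other peaks of the window were weaker. The peak centred at 8142 bp had 14.1 CPM in set 1 and 15.4 CPM in set 2 and did not separate the sets (-0.13, interval -0.44 to 0.20). In contrast, the peak at 5592 bp had 2.84 and 8.66 CPM (-1.61, -2.21 to -1.04). The peak at 20720 bp, which overlaps the lincRNA Gm35665, had 12 and 36 counts (-1.995, -3.07 to -1.02). At 31819 bp the values were 3.37 and 5.30 CPM (-0.65, -1.26 to -0.04). Counted once per cell, the ratio of that peak was -0.62 with an interval that included 0 (-1.54 to 0.29). Its shares of cells at equal depth were 1.47% in set 1 and 1.43% in set 2. The peaks at 27124 and 38439 bp held 12 and 3 counts over both sets and were below the minimum of 20. Thus 4 of the 6 Cebpa peaks with enough counts were higher in set 2 past 1.5-fold, where 19.5% of all peaks with enough counts were, and the promoter peak was not among the 4. With the downstream part of the window removed, the promoter peak alone remained and the locus ratio was -0.33.

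The letters of the distal peak were also read. Its 1341 bp held 4 RUNX words, or 2.98 per kb, against 0.907 per kb over all peaks. At least 4 RUNX words within some 300 bases were found in 329 of 93513 peaks (0.352%) and in 0.563% of the 17223 peaks between 1000 and 2000 bp wide. The Cebpe peak exceeded this count, with 8 RUNX words within 300 bases. The word, the number and the window were taken from the distal Cebpa peak after its sequence was seen, so these shares are a description and no support for anything particular to it. No TTGCNNAA was found in the distal Cebpa peak, where 41.4% of the peaks of similar width held it. It held 2 GAGGAA, present in 80.1% of those peaks, 1 AGATAA (42.1%) and 1 CAGCTG (57.99%), all outside the 300 bases printed above. Its CpG ratio of 0.144 lay below the median of all peaks (0.240), whereas the promoter peak had a ratio of 0.830.

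The other C/EBP genes showed smaller differences. Cebpb, which acts in macrophages and in granulocyte production under stress, had 58.3 CPM in set 1 and 53.9 CPM in set 2 (log2 ratio 0.11, -0.05 to 0.28). Its peak over the start (chr2:167688057-167691383, 888 bp of it coding) had 33.9 and 34.2 CPM and an upstream peak 24.4 and 19.7 CPM. Both peaks overlap Tmem189 and the peak over the start also touches the lincRNA A530013C23Rik, so their counts cannot be given to Cebpb alone. Cebpd, an acute phase member of the family, had a single peak (chr16:15886432-15891006) that spans nearly the whole gene and reaches Spidr. It had 59.9 and 55.0 CPM (0.12, -0.04 to 0.28), and 22.7% and 18.4% of cells at equal depth.

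Cebpe, which drives late granulocyte maturation and the secondary granule genes, had a level of 4.89 CPM per kb of peak, below the 12.6 of Cebpd and the 10.2 of the Cebpb start peak. Its single peak (chr14:54711883-54715199) lies mostly upstream of the start. It had 17.1 CPM in set 1 and 15.1 CPM in set 2 (0.18, -0.13 to 0.49), and 5.74% and 5.0% of cells had a count at equal depth. For all of Cebpb, Cebpd and Cebpe the interval of the ratio included 0 and lay within 1.5-fold. None of the 3 related genes of the fixed list, Cebpg, Cebpz and Ddit3, was past 1.5-fold (median ratio 0.01).

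Gfi1 had the largest locus ratio of the 7 genes with all counts used, whereas after thinning that of Mpo, on few counts, was larger (-1.005). The Gfi1 window had 431 counts in set 1 and 567 in set 2, or 33.0 CPM (30.0 to 36.3) and 57.7 CPM (53.1 to 62.7), a log2 ratio of -0.81 (-0.99 to -0.62) at percentile 2.33 of all loci. The size of the difference depended on how counts were taken. It was -0.61 (-0.91 to -0.30) with each peak counted once per cell and -0.55, short of 1.5-fold, after thinning. At equal depth, 12.6% (10.3 to 15.1%) of set 1 cells and 17.7% (14.6 to 21.1%) of set 2 cells had a count at Gfi1, and these intervals overlapped. The shares lay further apart at 2 times that depth, 19.35% of 553 cells in set 1 and 30.09% of 422 cells in set 2. No interval was computed at that depth. A single cell of set 2 with 77005 counts in all gave 21 of the Gfi1 counts, and without it the ratio was -0.76.

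With all counts used, the Gfi1 peaks differed between the sets in both directions. The peak over the start (chr5:107722642-107727112), which covers 2262 intronic bp and part of the transcript A430072P03Rik, had 26.0 and 48.8 CPM (-0.91, -1.11 to -0.71). Of cells at equal depth, 9.88% of set 1 (7.84 to 12.24%) and 15.2% of set 2 (12.31 to 18.4%) had a count there. These intervals did not overlap. An intronic peak centred 7874 bp into the gene had 1.76 and 5.91 CPM (-1.75, -2.51 to -1.03). The peak between them, at 4356 bp and with 496 coding bp, was higher in set 1, with 5.29 and 3.06 CPM (0.79, 0.15 to 1.46). With each peak counted once per cell its ratio was 0.53, no longer past 1.5-fold, and its interval included 0 (-0.33 to 1.44). The direction at this peak is thus not settled.

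Mpo was nearly closed in both sets. Its 3 peaks, none over the annotated start, had 43 counts in set 1 and 53 in set 2, or 3.30 CPM (2.38 to 4.44) and 5.40 CPM (4.04 to 7.06). Among the 16965 loci with at least 20 counts, 4.85% had fewer. The log2 ratio was -0.71 (-1.33 to -0.10) and came mostly from the peak at 1473 bp, over an exon and intron, which had 14 and 32 counts (-1.60, -2.62 to -0.66). The upstream peak, centred at -3230 bp from the start, had 25 and 17 counts (0.15, -0.80 to 1.13). With cut sites paired into fragments the locus ratio was -0.55 and short of 1.5-fold, and with each peak counted once per cell its interval included 0 (-1.53 to 0.20). At equal depth a count was found in 10 of 749 cells (1.34%) and in 11 of 560 cells (1.96%), shares that did not differ detectably at this depth.

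The Elane window held 1 peak (chr10:79879415-79885269), which lies over the neighbouring gene Prtn3 and ends at -978 bp from the Elane start. Prtn3 encodes proteinase 3, another primary granule protease. The peak had 41.8 CPM (38.3 to 45.4) in set 1 and 37.2 CPM (33.5 to 41.2) in set 2, with 12.95% and 11.96% of cells at equal depth. The shares were 23.87% in set 1 and 17.54% in set 2 at 2 times that depth, with no interval computed. The log2 ratio of 0.17 (-0.03 to 0.36) included 0. The cell of set 2 named above gave 30 of its counts, and without it the ratio was 0.28. No peak was called over the Elane body itself, so the value describes a peak that lies mostly within the Prtn3 body and otherwise between Prtn3 and Elane, and not Elane alone.

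**Figure D3:**
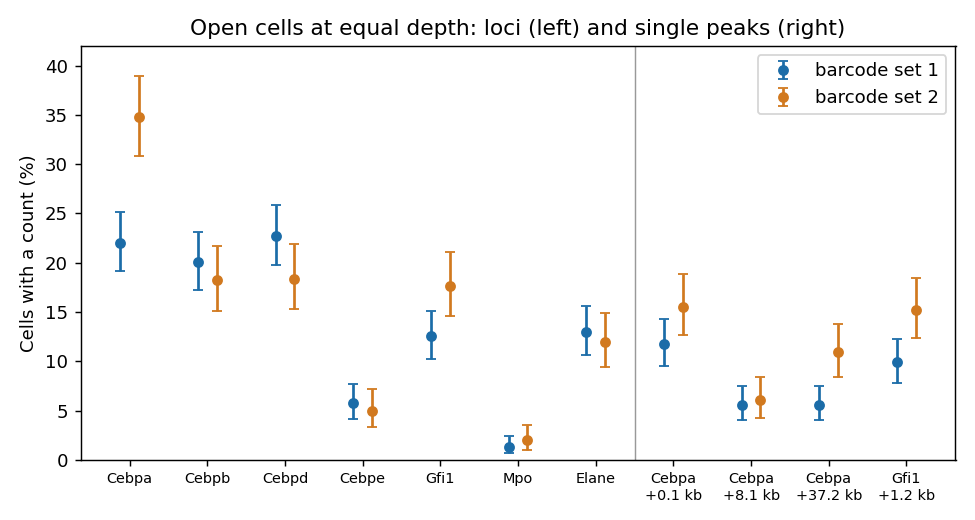
Share of cells with at least 1 count at equal depth (4899 counts per cell, 749 cells of set 1 in blue and 560 of set 2 in orange), with exact binomial 95% intervals, for the 7 loci on the left and 4 single peaks on the right, labelled by their distance from the gene start. The intervals of the sets do not overlap at the Cebpa locus (22.0% against 34.8%) and at its peak at 37.2 kb (5.61% against 10.9%). Those of the Gfi1 peak over the start (9.88% against 15.2%) do not overlap either.

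The members were set against all loci and all peaks. With 7 of 7 loci at 20 counts or more, 0 were past 1.5-fold higher in set 1, where 5.56% of the 16965 loci tested were. In set 2, 2 were higher (Gfi1 and Mpo), against 4.33% of loci. The median ratio of the 7 loci was 0.11 and that of all loci 0.004. Among single peaks, 16 of 19 reached 20 counts. Of these, 1 was higher in set 1 (background 20.4% of 79625 peaks) and 7 were higher in set 2 (background 19.5%), namely 4 at Cebpa, 2 at Gfi1 and 1 at Mpo. The median ratio of the 16 peaks was -0.23 and that of all peaks 0.02. Of the 9 member peaks over 1000 bp from a coding start, 1 was higher in set 1 and 5 in set 2, where the shares of all 63505 such peaks were 23.5% and 22.9%. Peaks of 1 window are not independent of each other, and with 1 library per set nothing particular to the members follows from these shares.

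**Figure D4:**
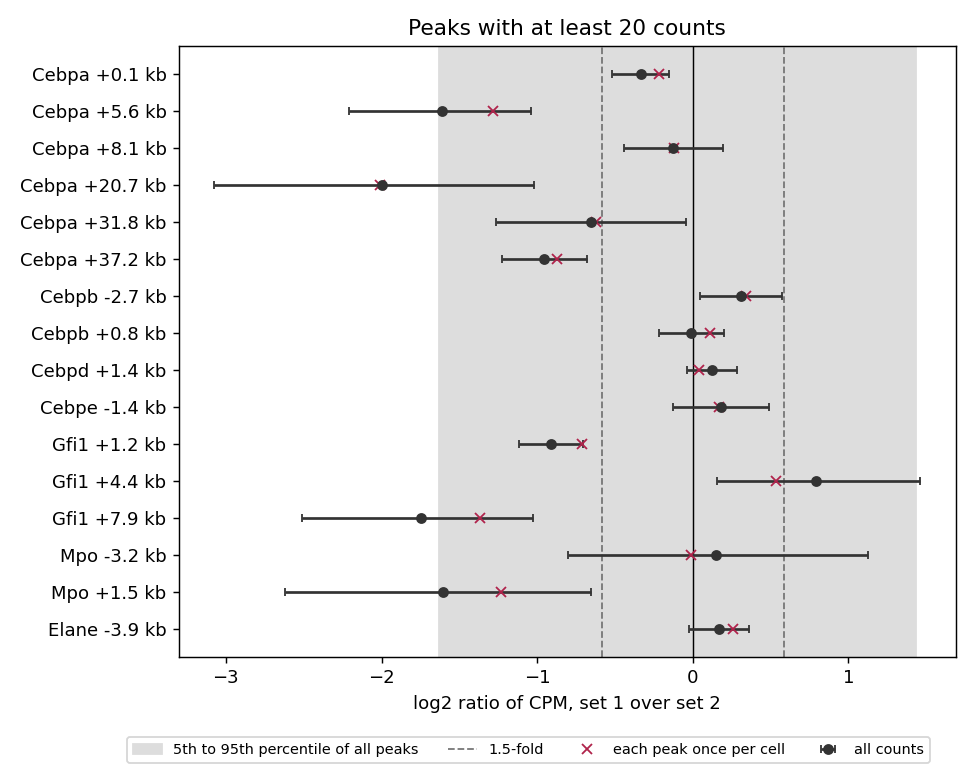
Log2 ratio of CPM, set 1 over set 2, of the 16 member peaks with at least 20 counts, labelled by gene and distance of the centre from the start. Black points use all counts, with exact 95% intervals for counting error, red crosses count each peak once per cell, the grey band holds the 5th to 95th percentile of all peaks (-1.63 to 1.43) and dashed lines mark 1.5-fold. Of the 16, 7 lie left of the lower line and 1, Gfi1 at 4.4 kb, lies right of the upper.

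The wider myeloid gene lists were measured in the same windows. None of 8 myeloid transcription factors, among them Spi1 (PU.1) with 103.7 and 98.9 CPM, was past 1.5-fold, and their median ratio was 0.03. The largest ratio of the 8 was that of Trib1, higher in set 1 with 162.1 and 116.1 CPM (0.48, 0.38 to 0.59). None of 6 myeloid cytokine receptors was past 1.5-fold either (median -0.26). Of 7 monocyte genes, 6 had enough counts, and 3 of them were higher in set 2, where 4.33% of all loci were. These were F13a1, a coagulation factor subunit, with 0.766 and 2.55 CPM (-1.73), the chemokine receptor Ccr2 with 3.76 and 7.74 CPM (-1.04), and Ly86 with 21.1 and 37.8 CPM (-0.84). The F13a1 ratio rests on 10 counts in 5 cells of set 1 and 25 counts in 12 cells of set 2, with a wide interval (-2.955 to -0.62). The median of the 6 was -0.70, against 0.004 over all loci.

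The gene lists named after granules were mixed, and not every gene in them encodes a granule protein. Of the 5 genes in the primary granule list, Prtn3, whose window holds the peak counted for Elane, carried most of the signal, with 89.3 and 90.3 CPM (-0.02). Ctsg had no peak in its window. Of the others, Cst7 was higher in set 2 with 9.73 and 20.2 CPM (-1.05) and Igsf6 higher in set 1 with 8.51 and 4.79 CPM (0.83). Counted once per cell, the interval of Igsf6 included 0 (-0.03 to 1.3) and that of Cst7 did not (-1.499 to -0.44). Of 9 secondary granule and neutrophil genes, 4 reached 20 counts. Ngp was higher in set 1, with 43 and 14 counts (1.21), and the collagenase gene Mmp8 higher in set 2, with 8.12 and 14.7 CPM (-0.85). Counted once per cell, the interval of Ngp included 0 (-0.39 to 2.11) and that of Mmp8 did not (-1.49 to -0.41). Camp, Lcn2, Fcnb and Cybb were at 0 in both sets. Camp, Lcn2 and Fcnb had no peak in their windows and Cybb had 1 of 7 bp, so these zeros are no measure of closed chromatin.

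Marker loci of other cell types were read beside these values. The 8 HSC markers summed to 707.1 CPM in set 1 and 596.3 CPM in set 2, with 3 of 8 past 1.5-fold higher in set 1, 0 in set 2 and none at 0 (median 0.46). Over all loci, 5.56% were higher in set 1 and 4.33% in set 2. Of the 4 monocyte and macrophage markers, 2 were higher in set 2 and 0 in set 1, none was at 0, and their sums were 277.7 and 289.2 CPM, most of it at Cd68. Neutrophil markers summed to 12.2 and 9.06 CPM. Of the 3 with enough counts, 1 was higher in set 1 and 0 in set 2, and Camp was at 0. B cell markers summed to 157.5 and 139.2 CPM, with 1 of the 3 that had enough counts higher in set 2. Erythroid markers summed to 87.96 and 72.3 CPM, with 1 of 4 higher in each set. T cell markers summed to 62.8 and 68.9 CPM, with 0 of the 2 that had enough counts past 1.5-fold. The reference loci Gapdh and Actb summed to 224.7 and 233.6 CPM (median ratio -0.06). These values stand beside the differences at Cebpa and Gfi1, and their part in those differences was not tested.

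Over single cells, counts at the 7 loci were at most weakly related to each other at this depth. At equal depth, 34.5% of set 1 cells and 30.0% of set 2 cells had a count at none of the 7, and the mean number of loci with a count was 0.973 ± 0.895 (SD over 749 cells) and 1.08 ± 0.962 (SD over 560 cells). Cells with a count at 4 or more loci numbered 5 of 749 and 8 of 560. For the 21 pairs of loci, the phi coefficient was taken, a correlation over cells between having a count at each locus of the pair. Its median was -0.007 in set 1 (range -0.065 to 0.064) and 0.014 in set 2 (-0.051 to 0.089). All of these are weak and describe sparse counts of cells from the same libraries. A locus without a count in a thinned cell may still be open, so these values cannot tell whether the loci open together or apart.

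**Figure D5:**
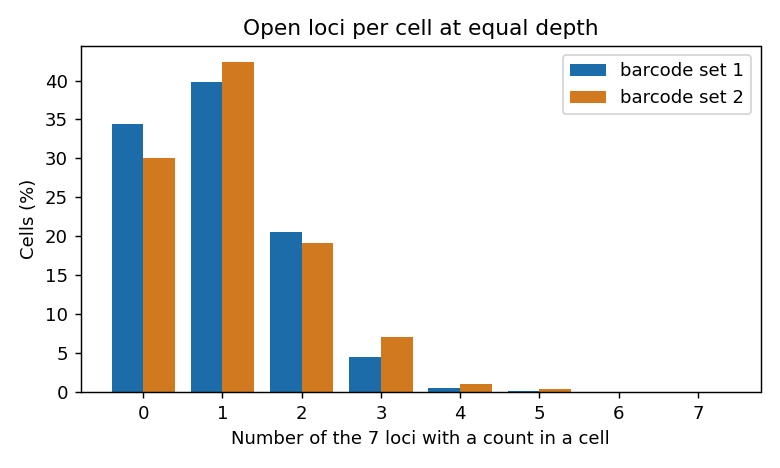
Share of cells (%) with a count at 0 to 7 of the member loci at equal depth, in barcode set 1 (blue, 749 cells) and set 2 (orange, 560 cells). Most cells have a count at 0 or 1 locus, and no cell has a count at 6 or 7.

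Counts at the Cebpa promoter and its distal peak were also at most weakly related over cells, with the same limit. In set 1, a count at the distal peak was found in 6.82% of 88 cells open at the promoter and in 5.45% of 661 cells not open there. In set 2 the shares were 11.5% of 87 cells and 10.8% of 473 cells. Between the peaks at 8142 and 37184 bp, the distal peak had a count in 9.52% against 5.37% of cells in set 1 and in 20.6% against 10.3% in set 2, where 4 and 7 cells had both. Of the fixed lists, the gene whose counts over cells were most like those of Cebpa was Mmp8, with a mean Spearman rho of 0.064 over the 2 sets (-0.003 in set 1 and 0.130 in set 2). For Gfi1 it was Trib1 (0.064) and for Elane Lyz2 (0.073). The highest value for any member was 0.113, between Mpo and Ms4a3, with 0.236 in set 2 and -0.010 in set 1. It rests on few cells, as Mpo had a count in 11 of 560 set 2 cells and Ms4a3 in 6 of 560.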

How the data were processed

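Nuclei of sorted LT-HSCs were profiled with the 10x Genomics single-cell ATAC kit. The authors deposited 2 tables of whole-number counts of cut sites per peak and cell barcode, made with Cell Ranger ATAC 1.2.0 on mm10 (GRCm38) per the submitters' processing notes, with no normalization of these counts stated. The table that holds the CLCA3A1high and CLCA3A1low cells, as their labels state, was used. The peaks of the other table are unnamed and it was not used.

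Peaks were assigned to GENCODE M21 genes by overlap with the gene body and 5000 bp upstream (Cebpa also 40000 bp downstream). Counts were summed per barcode set and scaled to 1e6 with Python 3.11.15, numpy 2.4.6, scipy 1.17.1 and pandas 2.3.3. Poisson and Clopper-Pearson 95% intervals were exact. Shares of open cells used cells thinned without replacement to 4899 counts, the 10th percentile. No cell was removed otherwise and no doublet caller was run. No comparison of CLCA3A1high with CLCA3A1low was made, since the labels give no sample for a barcode suffix.

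All 7 members and their peaks were named, and from the fixed lists at most 3 genes per list past 1.5-fold with at least 20 counts, with neighbours that share a member peak and the most alike list gene. Other genes named (Spi1, Cd68, Trib1 for its ratio and those at 0) fall outside that rule and were chosen after their values were seen. Members and lists were chosen with earlier results of these data known. The ratio and its interval were tested on simulated counts that were drawn independently of each other. Pairs of cut sites from the same fragment were not simulated, so that test does not bear on how narrow the intervals are for the real counts. Alternatives were counting each peak once per cell, pairing cut sites into fragments, median-of-ratios scaling, a cell depth filter, thinning, other windows and, chosen after seeing the data, leaving out 1 cell.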

Additional observations from a re-analysis of the deposited data

How the results depend on the processing

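The locus ratios kept their sign under each alternative except those near 0, for Cebpb (-0.01 with no upstream part) and Elane (-0.01 with 10000 bp upstream). The Gfi1 ratio of -0.81 went to -0.61 with each peak counted once per cell and to -0.55 after thinning. The Mpo ratio of -0.71 went to -1.41 with no upstream part, and the Elane ratio of 0.17 to 0.40 without the 84 cells under 1000 counts or over 3 times the median. The causes were not tested. No peak was left for Elane with no upstream part, so it has no value there. Depth set the shares of open cells: the median over the 7 loci, 12.95% in set 1 and 17.7% in set 2 at equal depth, was 23.6% and 28.1% without thinning and 23.9% and 28.4% at 2 times that depth, which fewer cells reach. The median locus at equal depth was Elane in set 1 and Gfi1 in set 2. Shares at Cebpb, Cebpd, Cebpe and Elane were higher in set 1, and those at Cebpa, Gfi1 and Mpo in set 2. The share of all loci and peaks past 1.5-fold stayed within 1.5 times its value under each alternative tried. No paired analysis was possible because the labels tie no barcode set to a sample and each group has 1 sample. Sparse counts limit Mpo most.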
